A study of Mus musculus with 18 samples.

Results

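The genes described here encode costimulatory and coinhibitory (checkpoint) ligands and activation markers of the antigen-presenting cell surface. They were chosen by symbol, and all 9 (Cd40, Cd80, Cd86, Icosl, Cd274, Pdcd1lg2, Cd83, Cd69 and Cd276) were among the 43280 symbols of the count table. RNA sequencing covered 18 libraries of bone marrow-derived macrophages (BMDM), which are obtained by differentiating marrow cells in a dish, here from Wildtype C57BL/6J mice. The mice had received PBS, 1xLPS or 4xLPS in vivo, which are called arms here; lipopolysaccharide (LPS) is the endotoxin of Gram-negative bacteria. The macrophages were then stimulated with LPS in vitro or left without stimulation (NO), which gave the 6 groups PBS_LPS, 1xLPS_LPS, 4xLPS_LPS, PBS_NO, 1xLPS_NO and 4xLPS_NO with 3 libraries each. The sources used here give no age, dose or duration. Nothing in the labels ties a replicate to a mouse of its own, and the p-values thus refer to library-to-library spread, part of which may be technical.

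A T cell that meets antigen also reads a second set of signals from the presenting cell. CD80 and CD86 engage CD28 or the inhibitory receptor CTLA-4, ICOS ligand (Icosl) engages ICOS, and PD-L1 (Cd274) and PD-L2 (Pdcd1lg2) engage the inhibitory receptor PD-1, whereas CD40 receives CD40 ligand from helper T cells. In macrophages, Toll-like receptor signalling through NF-kappaB and interferon signalling through STAT and IRF factors are the textbook inducers of many of these genes.

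The libraries held 9296453 to 54050622 counts, so that the 3 counts taken as the floor correspond to 0.0555 to 0.323 CPM (counts scaled to a common library size). Groups were taken from the titles. For 12 of 18 libraries the treatment tag has PBS where the title has 4xLPS or the reverse, and for 6 tag and title name 1 arm. Each heading of the count table holds an arm and a sample number, and looked up by number the tag gives the arm in the heading for 18 of 18 columns. If the tag of the sample with the same title were followed instead, every direction between 4xLPS and PBS given here would turn round. On the second principal component of all genes tested (14.2% of the variance), 1xLPS_NO library 1 and 1xLPS_LPS library 3 stood apart at 52.9 and 42.2, against -23.8 to 16.3 in the other libraries. The 1xLPS responses are therefore also given without these libraries.

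The cells carried the markers of macrophages, and most markers of other antigen-presenting or lymphoid cells were at low levels; Itgax, Cd4 and Zbtb46 were above the floor in every library. The 8 macrophage markers summed to 12647 to 24667 CPM across all libraries and none was at 0. The 6 B cell markers, of interest because B cells also carry CD40, CD80, CD86 and ICOS ligand, summed to 0.222 to 1.16 CPM, mostly Cd79b, and Pax5 was at 0 in 8 of 18 libraries. The 8 dendritic cell markers summed to 33.6 to 62.2 CPM, of which Itgax, also expressed by macrophages, made up 32.3 to 58.4 CPM; Zbtb46, a factor of classical dendritic cells, had 0.422 to 4.98 CPM, whereas Clec9a was at 0 in 9 libraries and Xcr1 in 8. The 8 T and NK cell markers summed to 2.59 to 9.61 CPM, mostly Cd4 at 2.33 to 9.09 CPM, and Cd3e did not exceed 0.211 CPM in any library. In such bulk samples fewer expressing cells and less RNA per cell cannot be told apart.

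In the RefSeq promoter table (GRCm38.p6), 5 of the 9 genes had an entry: Cd80, Icosl, Cd274, Pdcd1lg2 and Cd276. Windows of 300 bases, from 250 before to 50 after the RefSeq transcript start, are printed for ICOS ligand and PD-L1, the entries whose transcripts rose after LPS. The window of PD-L2 is added because its gene follows that of PD-L1 on chromosome 19 with 22.8 kb between them and was barely transcribed; it was added after its values were seen. Capitals mark every match to GGG and CC with 5 free bases between (kappaB type), TTCNNNGAA (STAT type) or TGANTCA (AP-1 type) on either strand, where N is any base. All windows are on the plus strand.
Icosl, chr10:78069118-78069417: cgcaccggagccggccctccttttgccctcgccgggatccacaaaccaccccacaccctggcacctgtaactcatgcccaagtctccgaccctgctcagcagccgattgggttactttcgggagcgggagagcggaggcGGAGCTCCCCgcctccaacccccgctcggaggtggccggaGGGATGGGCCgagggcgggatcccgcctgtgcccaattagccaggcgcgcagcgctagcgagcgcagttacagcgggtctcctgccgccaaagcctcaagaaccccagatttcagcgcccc
Cd274, chr19:29367188-29367487: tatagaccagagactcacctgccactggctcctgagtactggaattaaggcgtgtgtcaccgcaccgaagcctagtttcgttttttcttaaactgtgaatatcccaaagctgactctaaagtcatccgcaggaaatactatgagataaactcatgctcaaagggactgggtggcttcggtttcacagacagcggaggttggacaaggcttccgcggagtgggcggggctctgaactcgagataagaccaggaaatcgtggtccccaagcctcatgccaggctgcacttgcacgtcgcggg
Pdcd1lg2, chr19:29410669-29410968: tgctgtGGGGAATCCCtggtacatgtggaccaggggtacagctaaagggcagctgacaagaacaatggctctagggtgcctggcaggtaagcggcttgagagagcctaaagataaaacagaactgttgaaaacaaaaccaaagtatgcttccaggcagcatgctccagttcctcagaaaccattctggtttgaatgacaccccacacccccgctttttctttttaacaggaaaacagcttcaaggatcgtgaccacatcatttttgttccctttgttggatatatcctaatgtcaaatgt

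The Icosl window held 2 kappaB-type matches, GGAGCTCCCC and GGGATGGGCC, at -111 and -71 relative to the transcript start. The Pdcd1lg2 window held 1, GGGGAATCCC, at -244, and the Cd274 window held none of the 3 motifs. Of 32841 promoter windows in the table, 50.8% held the kappaB-type letters, 8.3% the STAT-type and 7.81% the AP-1-type, and the matches in Icosl and Pdcd1lg2 are common letters. Cd276, which was not called after LPS, had 9 overlapping and separate kappaB-type matches. Cd80, also not called after LPS, had 2 kappaB-type matches and 1 AP-1-type match, TGATTCA at -42. A match is a description of letters and no match says only that these letters are not in this window.

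Stimulation with LPS in vitro raised the same 5 ligand and marker transcripts in each arm. In edgeR's quasi-likelihood test with Benjamini-Hochberg adjustment over the 14158 genes that reached 1 CPM in 3 or more libraries, Cd40, Icosl, Cd274, Cd83 and Cd69 were called higher (adjusted p under 0.05) in the PBS arm, where 14.0% of all genes tested were called higher and 25.3% in either direction. The same 5 were called higher in the 1xLPS arm (12.0% of all genes tested higher, 22.8% either way) and in the 4xLPS arm (10.6% higher, 18.9% either way). Scaling by library totals instead of trimmed means (TMM) lowered the share of calls that were higher to 31.3% in the PBS arm and 34.5% in the 1xLPS arm, against 55.4% and 52.8% with TMM. Cd80, Cd86 and Cd276 were not called in any arm, and Pdcd1lg2 was below the filter. For the 5 called genes every stimulated library was above every unstimulated one, as held for 24.1%, 15.1% and 27.4% of all genes tested in the PBS, 1xLPS and 4xLPS arms. Cd69 passed the filter only through the stimulated groups, so it had to differ.

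**Figure D1:**
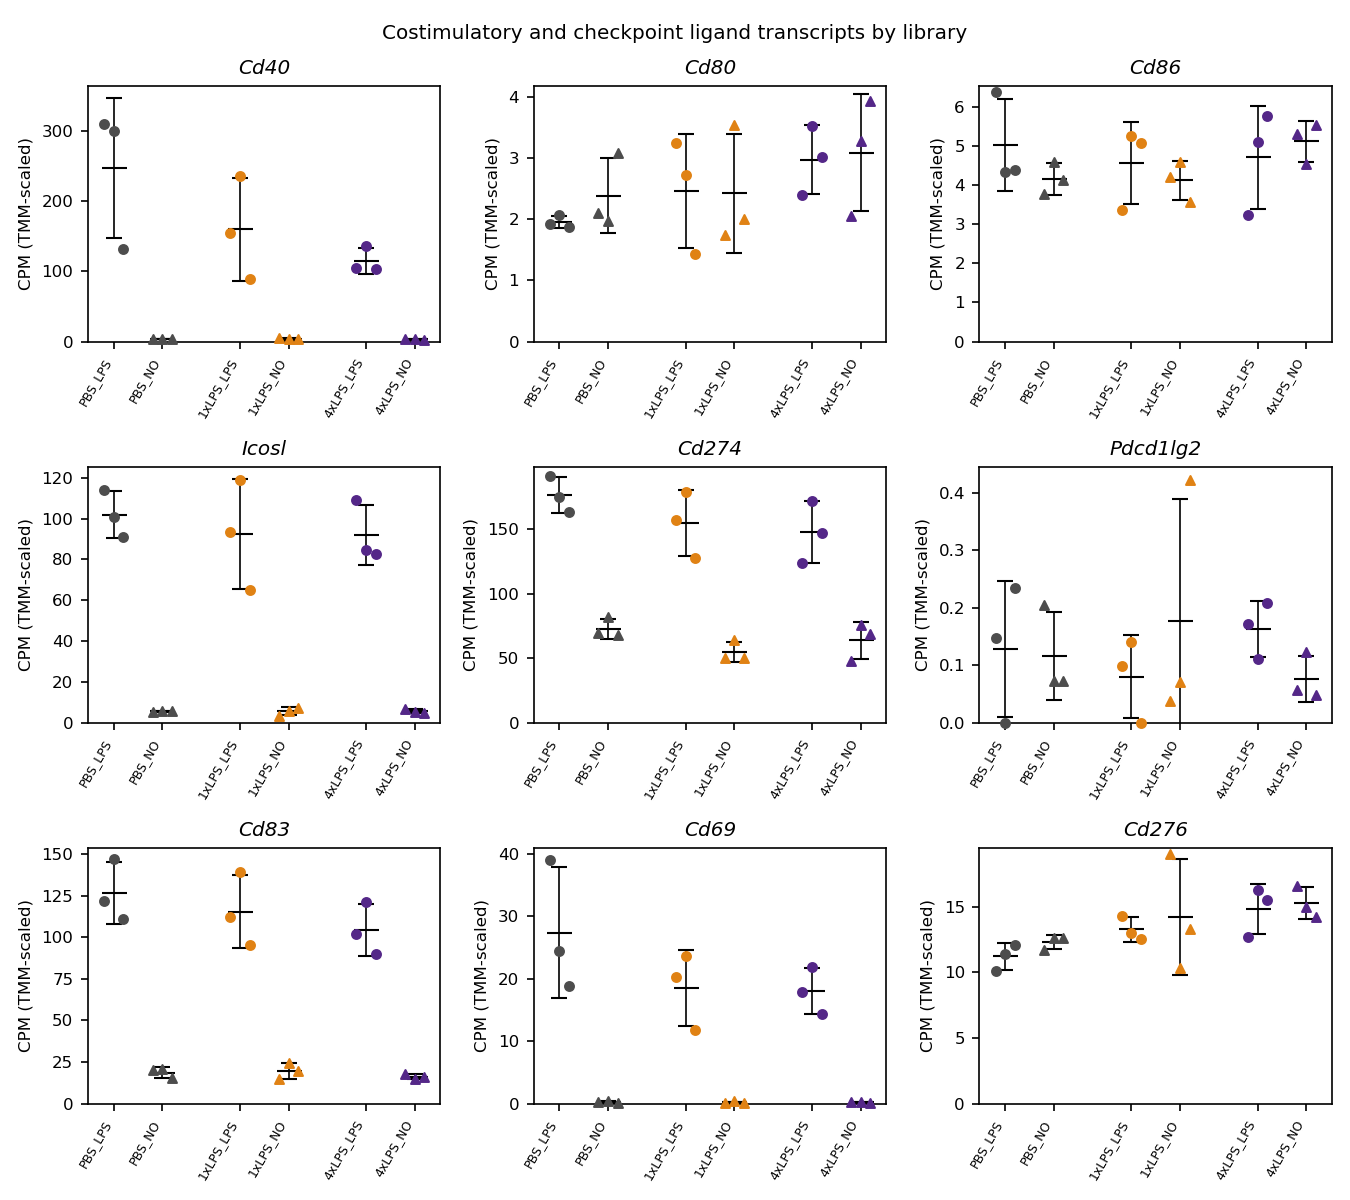
Level of each transcript (TMM-scaled CPM, linear axis from 0) in every library. Circles are LPS-stimulated and triangles unstimulated libraries, ordered by arm; horizontal marks and bars are the mean and SD of 3 libraries, and bars are cut at 0. In each arm the circles lie above the triangles for Cd40, Icosl, Cd274, Cd83 and Cd69 and among them for Cd80 and Cd86, and for Pdcd1lg2 no library exceeds 0.422 CPM.

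CD40, the receptor through which helper T cells license antigen-presenting cells, rose strongly in every arm. In the PBS arm Cd40 (chromosome 2, 165055627 to 165072948, mm10) had 309, 299.8 and 132 CPM in the PBS_LPS libraries, against 4.12, 3.5 and 3.16 CPM in the PBS_NO libraries. It had 154, 236 and 89.2 CPM in 1xLPS_LPS, against 4.62, 2.9 and 3.48 CPM in 1xLPS_NO. In the 4xLPS arm Cd40 had 104, 136 and 103 CPM in 4xLPS_LPS, against 3.53, 3.16 and 2.69 CPM in 4xLPS_NO. The stimulated libraries were all far above the unstimulated ones, but they spread widely in the PBS and 1xLPS arms, where the third library of each was the lowest. The log2 fold change of Cd40 was 6.10 ± 0.39 (SE; adjusted p = 1.5e-09) in the PBS arm, 5.45 ± 0.38 (8.1e-09) in the 1xLPS arm and 5.19 ± 0.38 (1.4e-08) in the 4xLPS arm. On the linear scale these are 68.5-fold (95% interval 39 to 120.1), 43.7-fold (25.1 to 76) and 36.6-fold (21.1 to 63.5). Without the libraries that stood apart, the 1xLPS value was 5.97 ± 0.39.

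The classical CD28 ligands showed no detected response. CD80 binds CD28 and, more tightly, CTLA-4. Cd80 (chromosome 16, 38455561 to 38496335) had 1.93, 2.07 and 1.88 CPM in PBS_LPS, against 2.1, 1.97 and 3.09 CPM in PBS_NO. It had 3.24, 2.73 and 1.43 CPM in 1xLPS_LPS, against 1.74, 3.54 and 2 CPM in 1xLPS_NO. Cd80 had 2.39, 3.52 and 3.02 CPM in 4xLPS_LPS, against 2.05, 3.28 and 3.94 CPM in 4xLPS_NO. The groups overlapped in every arm. The log2 fold changes of Cd80 were -0.28 ± 0.36, 0.00 ± 0.35 and -0.06 ± 0.36 in the PBS, 1xLPS and 4xLPS arms, with adjusted p from 0.61 to 1 by edgeR, and the 95% intervals together ran from -1.05 to 0.74.

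CD86 shares both receptors with CD80. Cd86 (chromosome 16, 36603869 to 36666081) had 6.38, 4.33 and 4.38 CPM in PBS_LPS, against 3.77, 4.58 and 4.13 CPM in PBS_NO. It had 3.37, 5.27 and 5.09 CPM in 1xLPS_LPS, against 4.21, 4.58 and 3.58 CPM in 1xLPS_NO. Cd86 had 3.24, 5.11 and 5.78 CPM in 4xLPS_LPS, against 5.3, 4.54 and 5.53 CPM in 4xLPS_NO. These groups overlapped too, and the log2 fold changes were 0.26 ± 0.26, 0.14 ± 0.26 and -0.11 ± 0.26 (adjusted p = 0.49, 0.74 and 0.8). Without the libraries that stood apart, the 1xLPS values were 0.04 ± 0.37 for Cd80 and 0.05 ± 0.32 for Cd86. Both genes gave only 19 to 278 counts per library, and a change of Cd86 beyond 0.81 on the log2 scale in either direction lay outside the 95% interval in each arm.

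ICOS ligand, which sustains activated and follicular helper T cells, rose most among the B7 family genes. Icosl (chromosome 10, 78069302 to 78083913) had 114, 101 and 90.9 CPM in PBS_LPS, against 5.09, 5.87 and 5.42 CPM in PBS_NO. It had 93.7, 119 and 65.1 CPM in 1xLPS_LPS, against 3.36, 5.79 and 7.17 CPM in 1xLPS_NO. Icosl had 109, 84.7 and 82.5 CPM in 4xLPS_LPS, against 6.84, 5.22 and 4.86 CPM in 4xLPS_NO. No stimulated library came near an unstimulated one. The log2 fold changes were 4.22 ± 0.26, 4.12 ± 0.26 and 4.03 ± 0.26 in the PBS, 1xLPS and 4xLPS arms (adjusted p = 1.2e-09, 2.8e-09 and 3.8e-09), and 4.07 ± 0.22 in the 1xLPS arm without the libraries that stood apart. Icosl ranked 83rd, 56th and 61st of 14158 genes by log2 fold change.

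PD-L1, the broadly expressed ligand of PD-1, was already abundant without stimulation and rose by a smaller factor. Cd274 (chromosome 19, 29367455 to 29388095) had 191, 175 and 163 CPM in PBS_LPS, against 69.1, 81.7 and 67.6 CPM in PBS_NO. It had 157, 179 and 128 CPM in 1xLPS_LPS, against 50.2, 64 and 49.9 CPM in 1xLPS_NO. In the 4xLPS arm Cd274 had 124, 172 and 147 CPM in 4xLPS_LPS, against 47.8, 75.3 and 68.3 CPM in 4xLPS_NO. Every stimulated library was above every unstimulated one. The fold changes were 2.42 (95% interval 1.85 to 3.16; adjusted p = 3.7e-05) in the PBS arm, 2.82 (2.16 to 3.7; 8.2e-06) in the 1xLPS arm and 2.32 (1.77 to 3.03; 9.2e-05) in the 4xLPS arm. Without the libraries that stood apart, the log2 fold change in the 1xLPS arm was 1.54 ± 0.21. The antisense gene AC119228.1, which has no row in the count table, overlaps 511 of the 3622 exonic bases of Cd274. Since the strand setting of the counting is unknown here, reads from these shared bases cannot be told apart.

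PD-L2, the second ligand of PD-1, was close to the floor throughout. Pdcd1lg2 (chromosome 19, 29410919 to 29471161) had 0 to 12 counts per library and at most 0.422 CPM. The 3 libraries of a group summed to 14, 8 and 17 counts in PBS_LPS, 1xLPS_LPS and 4xLPS_LPS, against 11, 9 and 5 counts in PBS_NO, 1xLPS_NO and 4xLPS_NO. With no filter on low counts its log2 fold changes after LPS were 0.25 ± 1.11, -0.61 ± 1.21 and 1.04 ± 1.18 (adjusted p = 1, 0.94 and 0.78), so a response of this gene was not detectable at this depth.

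B7-H3 (Cd276), a B7 family member whose receptor is less well defined, showed no detected response. Cd276 (chromosome 9, 58524298 to 58555437) had 10.1, 11.4 and 12.1 CPM in PBS_LPS, against 11.7, 12.6 and 12.6 CPM in PBS_NO. It had 14.3, 13 and 12.5 CPM in 1xLPS_LPS, against 19, 10.3 and 13.3 CPM in 1xLPS_NO. In the 4xLPS arm Cd276 had 12.7, 16.3 and 15.5 CPM in 4xLPS_LPS, against 16.6, 15 and 14.2 CPM in 4xLPS_NO. The groups overlapped in each arm, and the log2 fold changes of -0.13, -0.09 and -0.04 (SE 0.19 each; adjusted p = 0.66, 0.77 and 0.91) left 95% intervals from -0.53 to 0.36. In the 1xLPS arm the value was 0.22 ± 0.19 without the libraries that stood apart. The unclassified gene Gm10657, also without a row in the count table, overlaps 416 of the 3658 exonic bases of Cd276 on the other strand. Reads from these shared bases cannot be told apart either.

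CD83, a surface protein of mature antigen-presenting cells that stabilises MHC class II and CD86, rose in every arm. Cd83 (chromosome 13, 43784775 to 43803132) had 122, 147 and 111 CPM in PBS_LPS, against 20.3, 20.5 and 15.1 CPM in PBS_NO. It had 112, 139 and 95.1 CPM in 1xLPS_LPS, against 14.6, 24.1 and 19.7 CPM in 1xLPS_NO. Cd83 had 102, 121 and 89.7 CPM in 4xLPS_LPS, against 17.6, 14.9 and 16.1 CPM in 4xLPS_NO. The groups did not overlap in any arm, and the fold changes of Cd83 were 6.79 (95% interval 5.04 to 9.15; adjusted p = 1.1e-08), 5.89 (4.38 to 7.94; 4.4e-08) and 6.41 (4.75 to 8.65; 3e-08) by edgeR. Without the libraries that stood apart, the log2 fold change in the 1xLPS arm was 2.49 ± 0.21.

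CD69, a C-type lectin that retains lymphocytes in tissue and marks early activation of many leukocytes, was nearly undetected before stimulation. Cd69 (chromosome 6, 129267325 to 129275436) had 39, 24.4 and 18.8 CPM in PBS_LPS, against 0.175, 0.393 and 0.0359 CPM in PBS_NO. It had 20.3, 23.6 and 11.8 CPM in 1xLPS_LPS, against 0.0739, 0.334 and 0.105 CPM in 1xLPS_NO. In the 4xLPS arm Cd69 had 17.9, 21.8 and 14.4 CPM in 4xLPS_LPS, against 0.228, 0.243 and 0.0962 CPM in 4xLPS_NO. The unstimulated levels rest on 1 to 19 counts per library, against 322 to 960 counts in each stimulated library. As a description, the log2 fold changes were 7.06 ± 0.52, 6.38 ± 0.52 and 6.54 ± 0.54 in the PBS, 1xLPS and 4xLPS arms. They depend on single unstimulated libraries, at 7.86 without PBS_NO replicate 2 and 7.74 without 1xLPS_NO replicate 2, and the 1xLPS value was 6.21 ± 0.52 without the libraries that stood apart. Of the T and NK cell markers, the 3 T cell receptor-complex genes Cd3d, Cd3e and Cd3g stayed at or below 0.316 CPM in every library. Cd4 had 2.33 to 9.09 CPM, and Ncr1 reached 0.476 CPM. Which cells carried the Cd69 transcript was not tested.

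**Figure D2:**
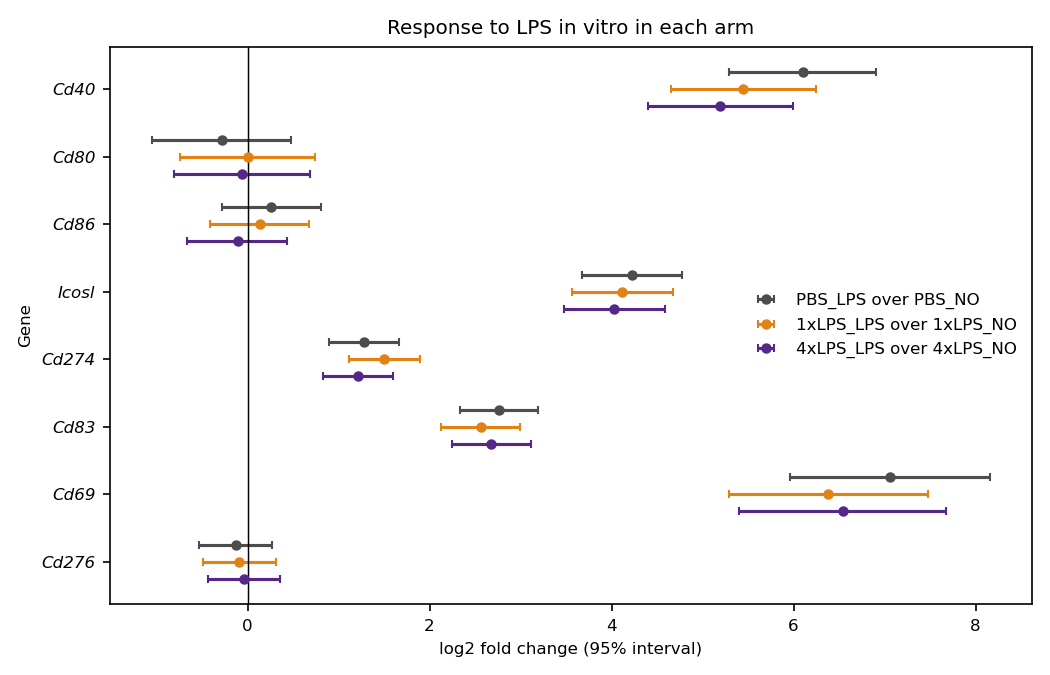
Log2 fold change of each tested transcript after LPS in vitro (points) in the PBS, 1xLPS and 4xLPS arms, from edgeR's quasi-likelihood fit. Bars are approximate 95% intervals derived from its F statistic. Cd69, Cd40, Icosl, Cd83 and Cd274 lie to the right of 0 in all arms, from 7.06 for Cd69 to 1.21 for Cd274; the intervals of Cd80, Cd86 and Cd276 include 0.

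Levels of different genes were compared per kilobase of exon. Among the unstimulated groups the order began with Cd274, Cd83 and Cd276 each time, and each was apart from the next over the 3 libraries. In PBS_NO these had 20.1 ± 2.14, 7.26 ± 1.19 and 3.36 ± 0.134 CPM per kb (SD, n = 3). Icosl (1.18 ± 0.0846), Cd86 (1.14 ± 0.11) and Cd40 (1.06 ± 0.144 CPM per kb) followed with overlapping libraries, then Cd80 at 0.644 ± 0.165, and last Pdcd1lg2 and Cd69, which overlapped each other. PD-L1 thus had the highest unstimulated transcript level of the set.

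After LPS, Cd40, Cd83 and Cd274 formed the top of the order and overlapped in every arm. In PBS_LPS Cd40 had 72.6 ± 29.3, Cd83 49.3 ± 7.13 and Cd274 48.7 ± 3.86 CPM per kb, whereas in 4xLPS_LPS Cd274 had 40.8 ± 6.63, Cd83 40.4 ± 6.05 and Cd40 33.6 ± 5.45 CPM per kb (SD, n = 3). Icosl came next and apart from both neighbours in each arm, at 22 ± 2.46 CPM per kb in PBS_LPS. Cd69 and Cd276 shared the next ranks, then came Cd86 and Cd80, and Pdcd1lg2 was last and apart from Cd80 in each stimulated group.

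The balance of PD-L1 transcript to the CD28 ligands was described as the ratio of Cd274 to the sum of Cd80 and Cd86, each per kb. It was 25.8 ± 2.28 in PBS_LPS, against 11.4 ± 1.64 in PBS_NO (SD, n = 3). It was 22.2 ± 2.15 in 1xLPS_LPS, against 8.54 ± 0.524 in 1xLPS_NO, and 19.9 ± 2.77 in 4xLPS_LPS, against 7.9 ± 1.67 in 4xLPS_NO. The lowest stimulated library (16.9) lay above the highest unstimulated one (12.7); no test was run on this ratio. The same ratio for Icosl was 11.6 ± 0.847 in PBS_LPS, against 0.667 ± 0.0603 in PBS_NO.

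**Figure D3:**
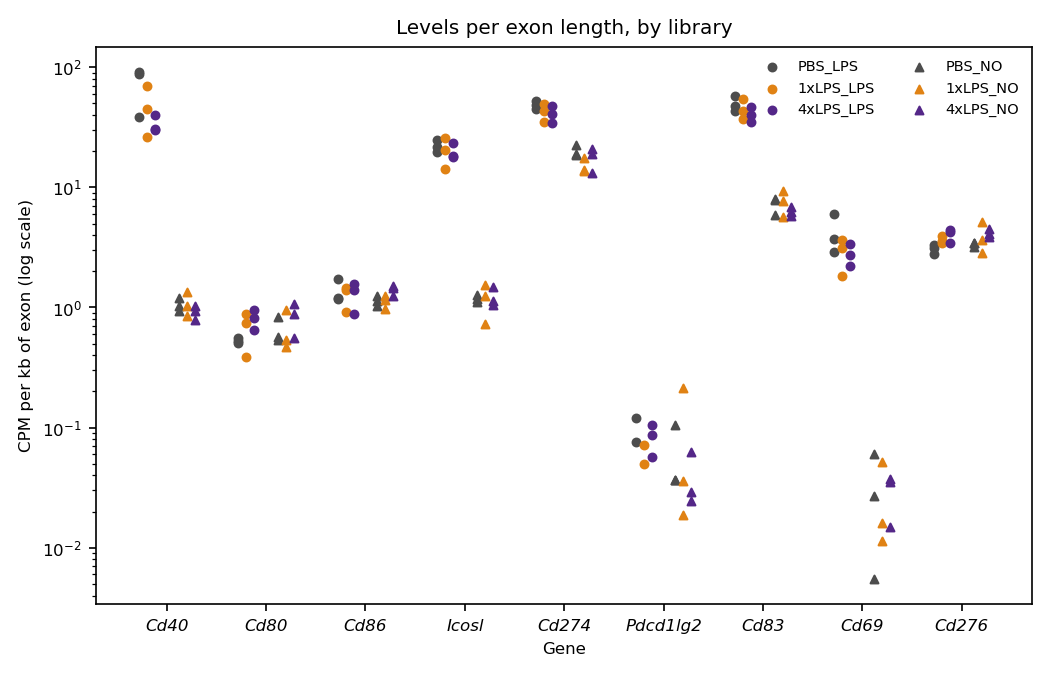
Level of each transcript per kilobase of exon (CPM per kb, log axis) in every library; circles are LPS-stimulated and triangles unstimulated libraries, coloured by arm. The 2 stimulated libraries with 0 counts of Pdcd1lg2 are not drawn. After LPS the points of Cd40, Cd83 and Cd274 overlap at the top, and Cd274 leads without stimulation.

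The study's other question is whether treatment in vivo changed the macrophages grown afterwards. Among unstimulated cells no ligand or marker was called in 1xLPS over PBS, 4xLPS over PBS or 4xLPS over 1xLPS, where 0% of all genes tested were called by edgeR in each comparison. At an unadjusted p under 0.05 there were 1669, 849 and 1352 genes, DESeq2 called 28, 110 and 37 and limma voom 0 in each, and none of these tools called a ligand or marker. The count of 0 rests on single libraries and settings: without 1xLPS_NO replicate 2 edgeR called 1588 genes in 1xLPS over PBS and 573 in 4xLPS over 1xLPS. In 4xLPS over PBS it called 248 genes with only the compared groups, 241 without the libraries that stood apart and 130 with no filter on low counts. With no filter it called 159 in 1xLPS over PBS. No ligand or marker was called in any of these fits. For Cd274 and Cd276 the libraries of a pair of arms did not overlap. Cd274 had 50.2, 64 and 49.9 CPM in 1xLPS_NO, against 69.1, 81.7 and 67.6 CPM in PBS_NO, a log2 fold change of -0.41 ± 0.18 (unadjusted p = 0.037, adjusted p = 0.4 by edgeR). All 3 1xLPS_NO libraries were lower than the lowest PBS_NO library; 5.05% of all genes tested lay apart in that direction. Without the libraries that stood apart, this value was -0.35 ± 0.19 (adjusted p = 0.67 by edgeR).

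Cd276 had 16.6, 15 and 14.2 CPM in 4xLPS_NO, against 11.7, 12.6 and 12.6 CPM in PBS_NO. The 4xLPS_NO libraries were all above the PBS_NO ones, as were those of 10.9% of all genes tested, and the log2 fold change was 0.31 ± 0.19 (adjusted p = 1 by edgeR). The other tested transcripts differed by -0.27 (Cd83, 4xLPS over 1xLPS) to 0.38 (Cd80, 4xLPS over PBS) on the log2 scale between unstimulated arms, with overlapping libraries. Without the libraries that stood apart, 4xLPS over 1xLPS was -0.44 ± 0.18 for Cd83 (adjusted p = 0.26 by edgeR) and 0.40 ± 0.17 for Cd276 (adjusted p = 0.28), against 0.11 for Cd276 with all libraries. For Cd69 the intervals were wide, from -1.74 to 1.53 over the 3 comparisons.

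In LPS-stimulated cells Cd40 showed the largest difference between arms in the set. Its 104, 136 and 103 CPM in 4xLPS_LPS stood against 309, 299.8 and 132 CPM in PBS_LPS. The third PBS_LPS library, the deepest of the study, lay within the 4xLPS_LPS range, and the other two lay far above it. The log2 fold change was -1.11 ± 0.31 (95% interval -1.76 to -0.46, unadjusted p = 0.002), and with adjustment over all genes p was 0.15 by edgeR, so Cd40 was not called. No ligand or marker was called in this comparison, where 0.0777% of all genes tested (11 genes) were called. At an unadjusted p under 0.05 there were 2 of the set, Cd40 and Cd276, and 1963 of all genes.

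The Cd40 difference passed the threshold under 4 of 15 other settings, in which more genes were called overall. With DESeq2 it was -1.16 ± 0.33 (adjusted p = 0.031), with no filter on low counts -1.12 ± 0.20 (edgeR, 6e-05), without PBS_LPS replicate 3 -1.44 ± 0.28 (edgeR, 0.047) and without 1xLPS_NO library 1 and 1xLPS_LPS library 3 -1.15 ± 0.24 (edgeR, 0.022). These fits called 326, 248, 35 and 574 genes, against 11. The fit with no filter also gave Cd40 an adjusted p of 2.9e-121 in the PBS response, against 1.5e-09 with the filter (both edgeR). Its calls, here and in the other comparisons, are therefore weaker evidence than those of the filtered fit. The other 11 settings did not call Cd40, among them only the compared groups (adjusted p = 0.06 by edgeR), a fit that called 282 genes. Over all 15 it ran from -1.44 to -0.87, with adjusted p from 6e-05 to 0.39. The direction was the same in each. In 1xLPS_LPS the Cd40 levels of 154, 236 and 89.2 CPM gave a log2 fold change over PBS_LPS of -0.63 ± 0.30 (adjusted p = 0.65 by edgeR), and -0.36 ± 0.27 without the libraries that stood apart. Between 4xLPS and 1xLPS it was -0.48 ± 0.30 (adjusted p = 0.73).

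Cd80 and Cd276 lay on the other side. Cd80 had 2.39, 3.52 and 3.02 CPM in 4xLPS_LPS, against 1.93, 2.07 and 1.88 CPM in PBS_LPS, a log2 fold change of 0.60 ± 0.36 (adjusted p = 0.47 by edgeR). Cd276 had 12.7, 16.3 and 15.5 CPM in 4xLPS_LPS, against 10.1, 11.4 and 12.1 CPM in PBS_LPS, a log2 fold change of 0.40 ± 0.19 (unadjusted p = 0.049, adjusted p = 0.36 by edgeR). Both were above PBS_LPS in every 4xLPS_LPS library, as were 14.8% of all genes tested. In 1xLPS_LPS Cd276 had 14.3, 13 and 12.5 CPM, again above every PBS_LPS library as 6.25% of all genes tested were, with a log2 fold change of 0.24 ± 0.19 (adjusted p = 0.76 by edgeR). Both comparisons use the same PBS_LPS libraries.

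The remaining transcripts were not called between stimulated arms. Over 4xLPS against PBS, Cd69 had a log2 fold change of -0.60 ± 0.36, Cd83 -0.29 ± 0.19, Cd274 -0.25 ± 0.18, Icosl -0.14 ± 0.23 and Cd86 -0.08 ± 0.26, all with overlapping libraries and adjusted p from 0.47 to 0.92 by edgeR. Their 95% intervals reached from -1.35 to 0.47. Scaling by library totals moved the median of all genes in this comparison to 0.24, against 0.02 with TMM, and turned the signs of Icosl and Cd86 to 0.08 and 0.14. In 1xLPS over PBS and 4xLPS over 1xLPS, 0% of all genes tested were called by edgeR, with 1085 and 848 genes at an unadjusted p under 0.05, 11 and 1 by DESeq2 and 0 by limma voom, and no ligand or marker by any of them. With no filter on low counts edgeR called 93 and 44 genes, again without a ligand or marker.

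**Figure D4:**
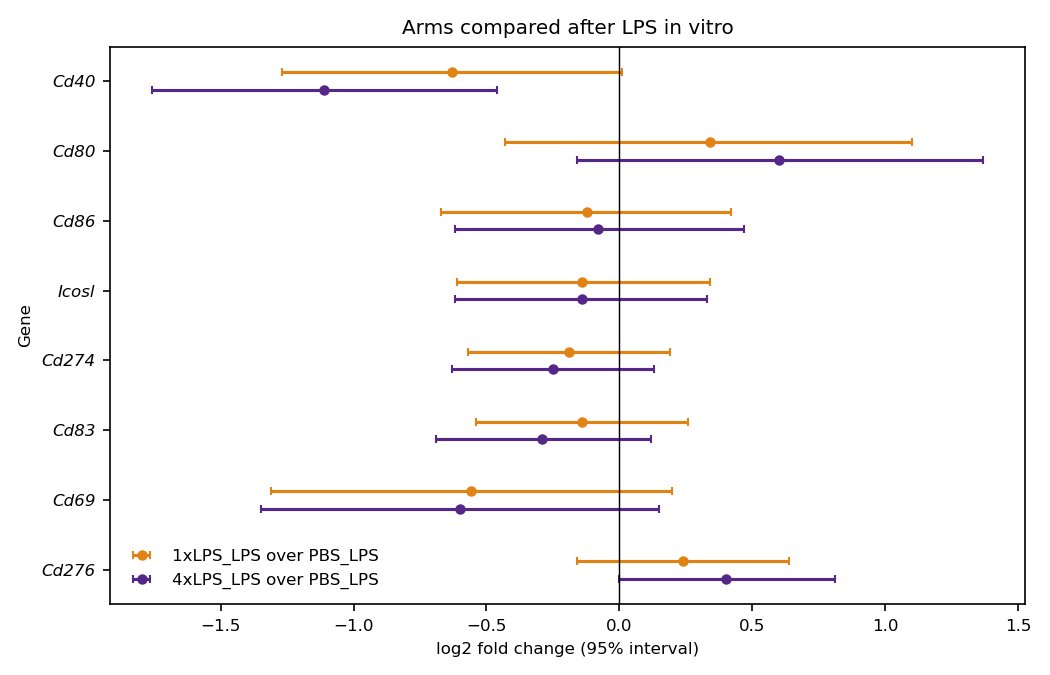
Log2 fold change between arms in LPS-stimulated cells (points) with 95% intervals (bars), for 1xLPS_LPS and 4xLPS_LPS each over PBS_LPS. The interval of Cd40 in 4xLPS over PBS lies left of 0, from -1.76 to -0.46; after adjustment over all genes it was not called. The points of Cd80 and Cd276 lie right of 0, but neither gene was called. Their intervals include 0, except that of Cd276 in 4xLPS over PBS, which begins at 0.00.

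A test of the difference between responses, which sets the LPS response of one arm against that of another, called none of the ligands or markers and 0% of all genes tested in each of the 3 comparisons by edgeR. At an unadjusted p under 0.05 there were 1154, 803 and 300 genes for 1xLPS over PBS, 4xLPS over PBS and 4xLPS over 1xLPS, none of them in the set; DESeq2 called 34, 6 and 0 and limma voom 0. With no filter on low counts edgeR called 144, 33 and 4 genes, and 17 in 1xLPS over PBS without PBS_LPS replicate 1, none of them in the set. For Cd40 the response in 4xLPS differed from that in PBS by -0.90 ± 0.47 on the log2 scale (95% interval -1.89 to 0.08, adjusted p = 0.81 by edgeR). That in 1xLPS differed from PBS by -0.65 ± 0.46 (adjusted p = 0.75), and by -0.13 ± 0.44 without the libraries that stood apart. Icosl differed by -0.19 ± 0.34 and Cd274 by -0.06 ± 0.26 in 4xLPS over PBS. A difference of the Cd274 response beyond 0.60 on the log2 scale in either direction lay outside the interval.

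Each tested transcript was set beside the genes whose log2(CPM + 1) ran most like it over the 18 libraries, by Pearson's r. Over both conditions r mainly reads the LPS response and the shared libraries, and it is a description. Cd40 was nearest to Nod2 and Nos2 (0.997 each), which encode a receptor for bacterial peptidoglycan and inducible nitric oxide synthase. Cd69 was nearest to Clec4e (0.997) and Cxcl1 (0.996), the C-type lectin Mincle and a neutrophil chemokine, and Icosl to Fnbp1l and Ppfibp2 (0.996 each). Cd83 was nearest to Tfec and Icam1 (0.993 each), and Cd274 to Gca (0.987) and Spryd7 (0.982). The transcripts that did not respond had weaker nearest genes: Plk1 and Podnl1 for Cd276 (0.887 and 0.886), Eda2r and Pnn for Cd80 (0.820 and 0.814), and Asf1a and Txn1 for Cd86 (0.699 and 0.609).

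Among the 9 stimulated libraries alone, Cd40 ran with Cd69 (r = 0.89), Cd83 (0.87) and Cd274 (0.85), and Cd80 with Cd276 (0.78). Cd40 and Cd80 showed no such relation (-0.03), and Cd40 and Cd276 ran in opposite directions (-0.57). These points share 9 libraries of 3 arms and carry no test. Among them is 1xLPS_LPS library 3, which stood apart. It had the lowest stimulated level of Cd40 (89.2 CPM), Cd69 (11.8 CPM) and Cd80 (1.43 CPM), but not of Cd83, Cd274 or Cd276. The r values were not computed without this library.

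Other ligands of antigen-presenting cells responded in both directions. Of 25 listed, 17 were tested, and 9 were called higher and 3 lower in the PBS arm, where 25.3% of all genes tested were called either way, with a median log2 fold change of 0.65 beside -0.02 for all genes. These 9 include Tnfsf4 and Tnfsf15, named after their values were seen, which passed the filter only through stimulated groups and so had to differ. They had 3.11 ± 0.14 and 3.73 ± 1.78 CPM in PBS_LPS, against 0.0575 ± 0.0433 and 0.184 ± 0.195 CPM in PBS_NO. Icam1, the adhesion ligand of LFA-1, had 2125 ± 606 CPM in PBS_LPS, against 70.4 ± 6.61 CPM in PBS_NO (adjusted p = 9e-11 by edgeR). Tnfsf9 (4-1BB ligand) had 161 ± 50.2 CPM, against 3.71 ± 0.365 CPM (2.5e-10). Pvr, a ligand of TIGIT, and Slamf7, a homophilic receptor, had log2 fold changes of 1.78 ± 0.14 and 1.99 ± 0.17. The 3 called lower, also named after their values were seen, were Havcr2 (-2.90 ± 0.27), Vsir (-1.35 ± 0.25) and Lgals9 (-0.86 ± 0.17). In the 1xLPS arm 8 were called higher and 3 lower, and in the 4xLPS arm 9 and 3, beside 22.8% and 18.9% of all genes tested called either way. Tnfsf4 and Tnfsf15, which had to differ, were again among the higher in both arms.

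The signalling genes of the CD40 and NF-kappaB list rose almost throughout. Of 16 genes, all tested, 15 were called higher and 0 lower in the PBS arm (median log2 fold change 2.19), 14 and 0 in the 1xLPS arm and 13 and 0 in the 4xLPS arm, beside 14.0%, 12.0% and 10.6% of all genes tested called higher. Traf1, an adaptor of CD40 and its relatives, had 357 ± 102 CPM in PBS_LPS, against 7.45 ± 1.26 CPM in PBS_NO. The inhibitors Nfkbie and Nfkbia and the subunit Nfkb2 had log2 fold changes of 3.58 ± 0.15, 3.46 ± 0.19 and 2.98 ± 0.17. In 4xLPS over PBS after stimulation, the median of this list was -0.44, beside 0.02 for all genes, and none of its genes was called. A median below 0 was not particular to this list. It was -0.36 for the macrophage markers, -0.29 for the other ligands and -0.20 for the interferon, STAT and IRF list, against 0.07 for the turnover list. The median of all genes in this comparison moved to 0.24 when scaled by library totals.

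The interferon, STAT and IRF list was mixed. Of 19 genes, 8 were called higher and 1 lower in the PBS arm (median 0.47), 5 and 2 in the 1xLPS arm and 5 and 1 in the 4xLPS arm, beside 25.3%, 22.8% and 18.9% of all genes tested called either way. Irf1, a factor that acts on the PD-L1 promoter in human cells, had 596 ± 46.2 CPM in PBS_LPS, against 31.9 ± 2.46 CPM in PBS_NO. Socs3, a feedback inhibitor, and the kinase gene Jak2 had log2 fold changes of 4.62 ± 0.25 and 2.48 ± 0.27, and Irf8, a macrophage and dendritic cell factor, fell by 1.39 on the log2 scale.

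Of 10 genes for turnover and shedding of the surface proteins, 2 were called higher and 3 lower in the PBS arm (median -0.12), beside 25.3% of all genes tested called either way. March1, a ubiquitin ligase that removes CD86 from the surface, had 5.35 ± 1.55 CPM in PBS_LPS, against 16.9 ± 0.846 CPM in PBS_NO (adjusted p = 0.00017 by edgeR). The related March8 and the protease gene Adam10 fell by 0.66 and 0.81 on the log2 scale, and the shedding protease gene Adam17 had a log2 fold change of 1.51 ± 0.24. In the 1xLPS and 4xLPS arms 1 was called higher and 2 lower each, a share close to the 22.8% and 18.9% of all genes tested and thus no result about these genes. Of 11 lymphocyte receptors for these ligands only Cd28 and Tnfrsf9 were tested. Cd28 had 8.16 ± 0.828 CPM in PBS_LPS, against 29.7 ± 2.57 CPM in PBS_NO (adjusted p = 0.00014 by edgeR). No gene of these lists was called between arms or in the differences of response.

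**Figure D5:**
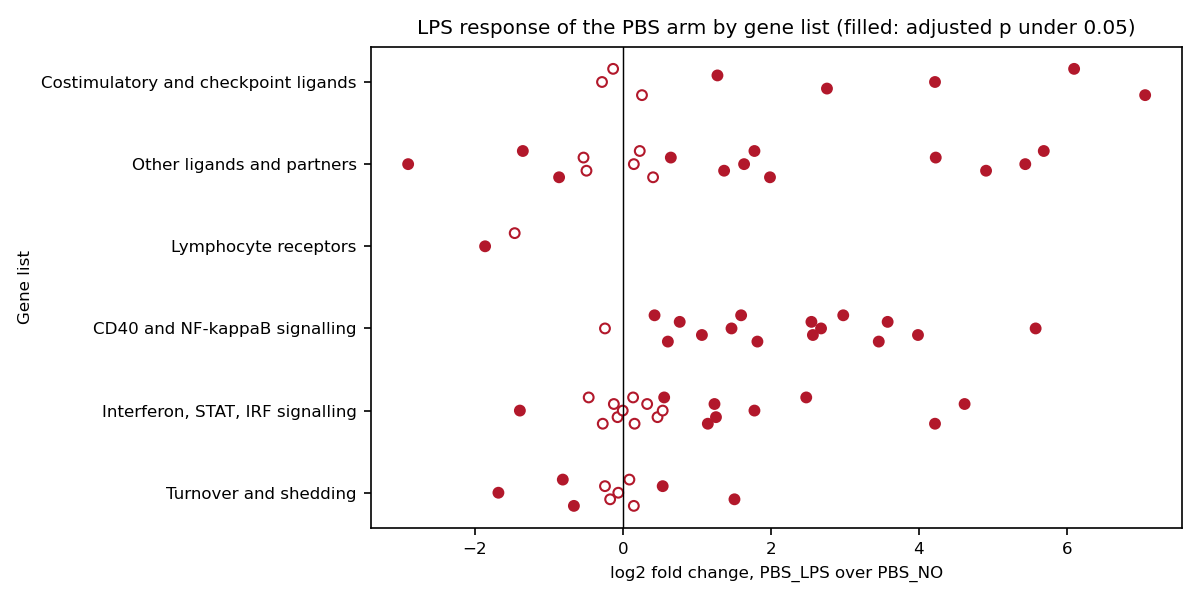
Log2 fold change of each tested gene after LPS in the PBS arm (PBS_LPS over PBS_NO), by gene list; filled points have adjusted p under 0.05 and the vertical spread within a list only separates points. In the CD40 and NF-kappaB list 15 of 16 points are filled and right of 0, whereas filled points of the other-ligand and turnover lists lie on both sides.

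Of the 8 macrophage markers, Cd14 and Emr1 were called higher and Mertk and Fcgr1 lower in the PBS arm, beside 25.3% of all genes tested called either way. In the 1xLPS and 4xLPS arms 1 was called higher and 3 lower each, beside 22.8% and 18.9% of all genes tested called either way. Emr1 was not called there (adjusted p = 0.23 and 0.27 by edgeR). Itgam was called lower there, with log2 fold changes of -0.72 ± 0.17 and -0.78 ± 0.17 (adjusted p = 0.0055 and 0.0033 by edgeR). Cd4, the only T and NK cell marker tested, was called lower in the 4xLPS arm only (-1.40 ± 0.31, adjusted p = 0.0036 by edgeR). Itgam and Cd4 are named after their values were seen. Of the 8 dendritic cell markers only 2, Zbtb46 and Itgax, were tested. Zbtb46 was called higher in the PBS and 1xLPS arms but not in the 4xLPS arm (adjusted p = 0.07 by edgeR). Zbtb46 had 2.93 ± 0.74 CPM in PBS_LPS, against 0.732 ± 0.138 CPM in PBS_NO, a log2 fold change of 2.01 ± 0.51. It had 3.05 ± 2.17 CPM in 1xLPS_LPS, against 0.677 ± 0.335 CPM in 1xLPS_NO. In the 4xLPS arm it had 3.78 ± 0.125 CPM in 4xLPS_LPS, against 1.51 ± 0.211 CPM in 4xLPS_NO, a log2 fold change of 1.31 ± 0.49. No dendritic cell marker was called in a difference of response between arms. The part of Zbtb46 in the responses of the ligands was not tested.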

How the data were processed

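RNA of 18 BMDM libraries was sequenced on an Ion Proton. Per the labels' protocols, reads were processed in Torrent Suite 5.12 and aligned to mm10 with TopHat2, unmapped reads with Bowtie2; the sources used here name no counter, annotation or strand setting. The deposited table, although its sheet is named for a normalised unit, holds whole-number counts per gene symbol with unequal totals, and the authors' raw counts were used. The authors' verdicts on their own comparisons were not used.

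The 14158 genes that reached 1 CPM in 3 or more libraries were fitted with edgeR 4.0.16 (TMM, quasi-likelihood, 1 mean per group over 18 libraries, 12 residual degrees of freedom), with 12 contrasts and Benjamini-Hochberg adjustment over all genes tested. The fit was also run on simulated counts, drawn independently around group means and thus without libraries that stand apart. No result given here rests on that run. Exon lengths came from GENCODE (GRCm38). Members and lists were chosen with earlier results of these data known. Of 111 list entries 110 matched, 5 by an older symbol (Adgre1 as Emr1). From each list up to 4 called genes with the smallest p in the PBS arm were named, and for each member the 2 genes with the highest r (predicted genes left out). Replicate numbers counted as pairing where every same-number correlation of deviations exceeded 0.1, which held only for 4xLPS_NO and PBS_NO (0.576, 0.197 and 0.371). For PBS_LPS and PBS_NO these were -0.195, 0.0725 and -0.0228. Libraries of different numbers were not compared, so this rule does not establish a shared source. Alternatives used DESeq2 1.42.0 and limma 3.58.1. Counting floors cover counting error only.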

Additional observations from a re-analysis of the deposited data

How the results depend on the processing

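The 15 member results called after LPS (5 genes in 3 arms) kept their direction and call in 225 of 225 alternative values. Those of Cd69 are no support, because Cd69 passed the filter only through the stimulated groups and had to differ. Of 1356 alternative values of the 81 results that were not called, 135 turned sign and 4 were called, each of these 4 being Cd40 in 4xLPS over PBS after stimulation. There the count of called members was 1, against 0, with no filter on low counts, with DESeq2, and without 1xLPS_NO 1 and 1xLPS_LPS 3; leaving out each replicate gave 0 to 1, with 1 without PBS_LPS replicate 3. The replicate number as a block gave -1.03 for Cd40 in that comparison (adjusted p = 0.14 by edgeR) and changed no call of a member. In 4xLPS over PBS without stimulation, whose groups met the rule for pairing, the block also called 0 members.

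Sign turns were all in uncalled results. Cd80 in the 1xLPS response, at 0.00, was 0.03 with no filter, 0.01 with filterByExpr, 0.05 with the replicate block and 0.04 without the 2 libraries, and -0.24 to 0.42 with replicates left out. Cd276 there was 0.22 without those libraries and -0.29 to 0.18 with replicates left out. With replicates left out, Cd80, Cd86 and Cd276 ran from -0.28 to 0.09, -0.35 to 0.03 and -0.14 to 0.02 in the 4xLPS response, Cd86 from -0.28 to 0.12 in 4xLPS over PBS after stimulation, and Cd80, Cd274, Cd83 and Cd276 from -0.05 to 0.40, -0.23 to 0.03, -0.23 to 0.04 and -0.01 to 0.15 in the difference of response of 4xLPS over PBS. With library totals, Cd86 was -0.01 in the 1xLPS response, Cd86 and Icosl were 0.14 and 0.08 in 4xLPS over PBS after stimulation, and Icosl, Cd274 and Cd83 were 0.04, 0.14 and 0.14 in that difference. Cd86 in 4xLPS over PBS after stimulation was 0.01 with limma voom. The cause was not tested.

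All-gene counts moved more: 4xLPS over PBS after stimulation called 11 genes, with 0 to 574 over alternatives (574 without 1xLPS_NO 1 and 1xLPS_LPS 3), and the 1xLPS response 3228, with 1134 to 4255. Arms hold 3 libraries each, and Pdcd1lg2 and unstimulated Cd69 were limited by depth.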
